A study of Mus musculus with 5 samples.

Results

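A set of 10 genes of corticosteroid signalling was examined in astrocytes selected from the basolateral amygdala of chronically stressed mice. All 10 symbols of the set had a row among the 35976 genes of the count table. The set holds the 2 corticosteroid receptors Nr3c1 and Nr3c2, the enzyme Hsd11b1, the receptor co-chaperone Fkbp5, and the target genes Sgk1, Tsc22d3, Zbtb16, Sult1a1, Cebpd and Errfi1. The design asked what loss of CCR2-expressing monocytes during stress does to amygdala astrocytes. The DTx libraries came from mice labelled as treated with DTx, diphtheria toxin (n = 3, called 5A, 6A and 7A), and the others from mice given saline (n = 2, called saline replicates 1 and 2).

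All 5 libraries came from mice of the genotype Ccr2::CreERT2/+;DTR/+, in which a tamoxifen-activated Cre recombinase made from the Ccr2 locus turns on a diphtheria toxin receptor. Tamoxifen, 18 days of tube restraint, fear conditioning and extinction were common to both groups, so no unstressed level enters any value below. Age is not given in the labels. Cells were taken with magnetic beads against the astrocyte surface antigen ACSA-2, and each library was made from 5 ng of RNA. The design text counts 3 saline animals, and 1 saline library was not analysed here.

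Corticosterone, the main glucocorticoid of rodents, binds the mineralocorticoid receptor encoded by Nr3c2 with high affinity and the glucocorticoid receptor encoded by Nr3c1 with lower affinity, so the glucocorticoid receptor is engaged mainly when hormone is high, as in stress. The bound glucocorticoid receptor moves to the nucleus and binds a palindromic DNA element beside the genes it induces. In the brain Hsd11b1 regenerates active hormone from its inert 11-keto form inside cells. FKBP5, itself induced by the receptor, lowers the receptor's affinity for hormone and so closes a feedback loop.

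Library totals were 17788200, 15961220 and 18708138 counts in DTx-labelled libraries 5A, 6A and 7A, against 20577672 and 23720299 in saline replicates 1 and 2. Ccr2, whose locus drives the Cre, had 54, 4 and 4 counts in libraries 5A, 6A and 7A and 0 in both saline libraries, which runs against the depletion that the label names, so directions below are those of the libraries as labelled. Xist, transcribed from the inactive X chromosome of female cells, had counts-per-million (CPM) values of 0.158, 0 and 0 in DTx-labelled 5A, 6A and 7A, against 172 and 129 CPM in the saline libraries. The summed level of 4 Y-linked genes was 201, 185 and 200.4 CPM in the DTx-labelled libraries against 0.1845 and 0.0896 CPM in saline. The groups therefore differ in sex-chromosome expression in 5 of 5 libraries, and for every gene below a difference by treatment label and one by sex cannot be told apart. Astrocyte markers were abundant throughout, with 12 markers summing to 27220, 29804 and 26000 CPM in DTx-labelled 5A, 6A and 7A and 25656 and 26812 CPM in saline. The 10 oligodendrocyte markers summed to 42299, 43559 and 89054 CPM in the same DTx-labelled libraries and 59131 and 91189 CPM in saline. In such bulk samples, fewer cells of a type and less RNA per cell cannot be told apart.

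With edgeR's quasi-likelihood test across 15532 genes, 0 of the 10 genes passed an adjusted p of 0.05 in either direction, against a background of 0.0258% of genes called higher and 0.00644% called lower. At an unadjusted p under 0.05 there were 3 of the 10, all higher in the DTx-labelled libraries (Sult1a1, Cebpd and Fkbp5), where 6.28% of all genes reached that level in either direction. DESeq2 also called 0 of the 10, with the same 3 at an unadjusted p under 0.05. The edgeR likelihood ratio test called 0 with another 3 at that level, Sgk1 (unadjusted p = 0.0163) in place of Fkbp5 (unadjusted p = 0.0578). By limma-voom 0 were called, with 4 at that level, Sgk1 being added. Both receptors and Hsd11b1 had overlapping groups, 5 of the 7 targets (Fkbp5, Sgk1, Tsc22d3, Sult1a1 and Cebpd) were higher in every DTx-labelled library than in either saline library, and Zbtb16 and Errfi1 overlapped. Over all genes tested, 12.1% were higher without overlap and 8.98% were lower without overlap. The 10 genes were chosen with earlier results of these data known, so their counts beside these shares are no test of the set. The median log2 fold change of the 10 genes was 0.21, and that of all genes tested 0.00.

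**Figure D1:**
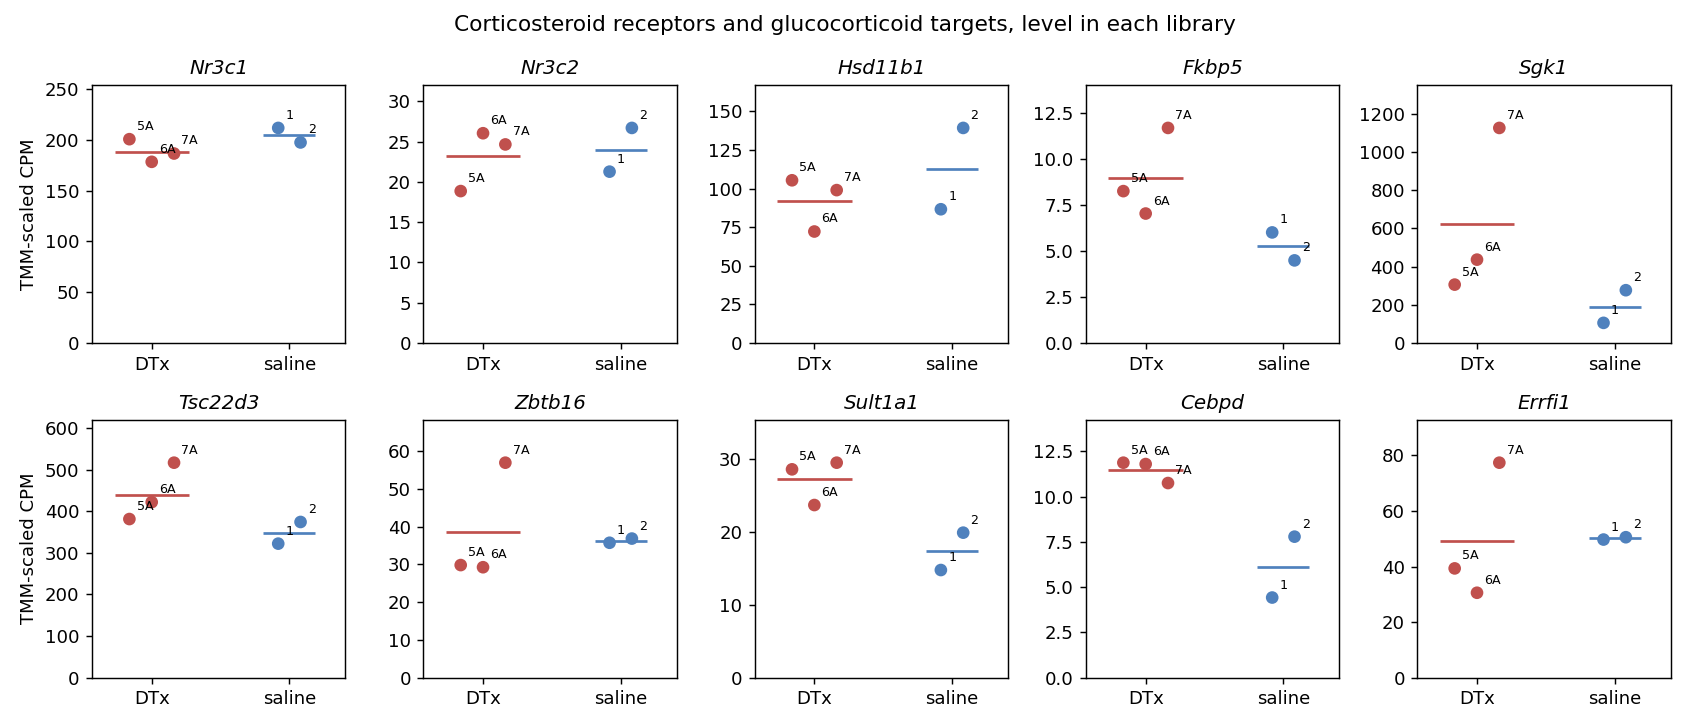
Level of each gene in each library, as TMM-scaled CPM on linear axes that start at 0, with DTx-labelled libraries 5A, 6A and 7A left in red, saline replicates 1 and 2 right in blue, and a bar at each group mean. Library 7A stands highest for Sgk1, at 1127 CPM, and also for Zbtb16 and Errfi1, whose other DTx-labelled libraries lie below both saline libraries.

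The glucocorticoid receptor gene Nr3c1 (gene ID 14815, GRCm38 chromosome 18, 39410545 to 39519421) was the most even of the 10. It stood at 201, 178 and 186 CPM in DTx-labelled libraries 5A, 6A and 7A, against 212 and 197 CPM in saline replicates 1 and 2. The groups overlapped, and the highest library exceeded the lowest 1.19-fold. Its log2 fold change was -0.12 ± 0.14 (SE, edgeR adjusted p = 0.882), with a 95% interval from -0.46 to 0.22. On the linear scale the interval runs from 0.727-fold to 1.17-fold, so a halving or a doubling of Nr3c1 lies outside it.

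Nr3c2, the mineralocorticoid receptor gene (gene ID 110784, chromosome 8, 76898083 to 77245012), stood at 18.9, 26.0 and 24.6 CPM in DTx-labelled 5A, 6A and 7A, against 21.3 and 26.7 CPM in saline. Its lowest library was 5A and its highest saline replicate 2, with the groups overlapping. The log2 fold change was -0.05 ± 0.20 (SE, edgeR adjusted p = 0.963), with a 95% interval from -0.52 to 0.42, and its sign turned without library 5A (0.08) and without saline replicate 2 (0.12). Its exons overlap 247 bases of the opposite-strand gene Gm10649, and reads of the 2 cannot be told apart if strand was not used in counting. Per kilobase of exon, the level of Nr3c1 exceeded that of Nr3c2 8.96, 5.77 and 6.37-fold in libraries 5A, 6A and 7A, and 8.38 and 6.23-fold in saline replicates 1 and 2. The ratios of the groups overlapped.

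Hsd11b1, the 11-beta-hydroxysteroid dehydrogenase that regenerates corticosterone (gene ID 15483, chromosome 1, 193221640 to 193264045), stood at 105, 72.2 and 99.0 CPM in DTx-labelled 5A, 6A and 7A, against 86.6 and 139 CPM in saline. Saline replicate 2 was the highest of the 5 libraries and saline replicate 1 lay inside the range of the DTx-labelled ones. DTx over saline, the log2 fold change was -0.29 ± 0.25 (SE, edgeR adjusted p = 0.832), with a 95% interval from -0.90 to 0.32, and it was 0.09 without saline replicate 2. Hsd11b2, the enzyme that inactivates corticosterone, had at most 0.134 CPM in any library and was below the filter of the test. H6pd, which supplies the cofactor that lets Hsd11b1 work as a reductase, stood at 1.53, 1.18 and 1.76 CPM against 2.44 and 1.97 CPM in saline, without overlap, with a log2 fold change of -0.56 ± 0.36 (SE, edgeR adjusted p = 0.811).

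Fkbp5 (gene ID 14229, chromosome 17, 28398753 to 28486149) encodes the co-chaperone that sits on the unliganded receptor with HSP90. It stood at 8.24, 7.02 and 11.7 CPM in DTx-labelled 5A, 6A and 7A, against 5.996 and 4.48 CPM in saline. Every DTx-labelled library was above both saline libraries, with 7A the highest. The estimated log2 fold change was 0.78 ± 0.30 (SE, edgeR adjusted p = 0.789, unadjusted p = 0.0381), or 1.71-fold with a 95% interval from 1.04 to 2.82. It was 0.54 without library 7A and 0.58 without saline replicate 2. Fkbp5 was also the gene with the lowest level per length of the 10, at 0.948 ± 0.254 CPM per kilobase in DTx-labelled libraries (SD, n = 3) and 0.553 ± 0.113 in saline (SD, n = 2), from 100 to 205 counts a library.

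Sgk1, a serum- and glucocorticoid-induced kinase that regulates ion transport (gene ID 20393, chromosome 10, 21882184 to 21999903), had the widest range. It stood at 306, 437 and 1127 CPM in DTx-labelled 5A, 6A and 7A, against 105 and 276 CPM in saline replicates 1 and 2. The groups did not overlap, but library 5A was close to saline replicate 2, and 7A was 3.04-fold above the mean of 5A and 6A. Its log2 fold change was 1.71 ± 0.73 (SE, edgeR adjusted p = 0.797, unadjusted p = 0.0622), or 3.27-fold with a 95% interval from 0.918 to 11.6. Without library 7A it was 0.96, and without saline replicates 1 and 2 it was 1.17 and 2.57.

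Sgk1 is also a gene of oligodendrocytes, and within each group its highest library was the one with the most oligodendrocyte RNA, 7A among the DTx-labelled and replicate 2 among the saline libraries. Library 7A had 1127 CPM of Sgk1 at a marker sum of 89054 CPM, and saline replicate 2 had 276 CPM at 91189 CPM. The median log2 fold change of the 10 markers was -0.47. With the mean log2 CPM of these markers as a covariate, the log2 fold change of Sgk1 was 2.47 (unadjusted p = 9.51e-05), and it did not pass over all genes (edgeR adjusted p = 0.246). The part of oligodendrocyte RNA in the level of Sgk1 was not tested beyond this fit.

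Tsc22d3, which encodes GILZ, a glucocorticoid-induced leucine zipper protein that restrains NF-kB and AP-1 (gene ID 14605, chromosome X, 140539528 to 140600522), stood at 381, 422 and 517 CPM in DTx-labelled 5A, 6A and 7A, against 322 and 374 CPM in saline. The groups did not overlap, with library 5A the lowest of the DTx-labelled ones and close to saline replicate 2. The estimated log2 fold change was 0.34 ± 0.19 (SE, edgeR adjusted p = 0.803), with a 95% interval from -0.13 to 0.80, and it was 0.21 without library 7A. It was the only one of the 10 genes on a sex chromosome.

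Sult1a1, a phenol sulfotransferase (gene ID 20887, chromosome 7, 126672865 to 126690443), had the smallest unadjusted p of the 10 genes, 0.0125, which was rank 239 of the 15532 genes tested. It stood at 28.6, 23.7 and 29.5 CPM in DTx-labelled 5A, 6A and 7A, against 14.8 and 19.9 CPM in saline, without overlap. The log2 fold change was 0.65 ± 0.19 (SE, edgeR adjusted p = 0.789), or 1.57-fold with a 95% interval from 1.14 to 2.16. Its exons share 61 bases with the opposite-strand gene Sgf29.

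Cebpd, a transcription factor of the C/EBP family induced by glucocorticoids and by inflammatory cytokines (gene ID 12609, chromosome 16, 15887286 to 15889545), stood at 11.9, 11.8 and 10.8 CPM in DTx-labelled 5A, 6A and 7A, against 4.43 and 7.79 CPM in saline. The DTx-labelled libraries were within 1.10-fold of each other, and the saline libraries differed 1.76-fold. Its log2 fold change was 0.91 ± 0.28 (SE, edgeR adjusted p = 0.789, unadjusted p = 0.0154), or 1.88-fold with a 95% interval from 1.18 to 2.99. By the GENCODE M21 gene models its exons share 562 bases with the opposite-strand gene Spidr.

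Microglia markers ran beside Cebpd. Their 12 genes, none at 0 in every library, summed to 416, 345 and 262 CPM in DTx-labelled 5A, 6A and 7A and 121 and 280 CPM in saline replicates 1 and 2. The order of the libraries by Cebpd was 5A, 6A, 7A, saline replicate 2 and saline replicate 1, and by microglia markers it was the same except that saline replicate 2 lay above 7A. With the mean log2 CPM of these markers as a covariate, the log2 fold change was 0.49 for Cebpd, 0.47 for Sult1a1 and 1.15 for Fkbp5, each with an edgeR adjusted p of 0.999. Leaving out saline replicate 1 gave Cebpd a log2 fold change of 0.56, and leaving out replicate 2 gave 1.37.

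**Figure D2:**
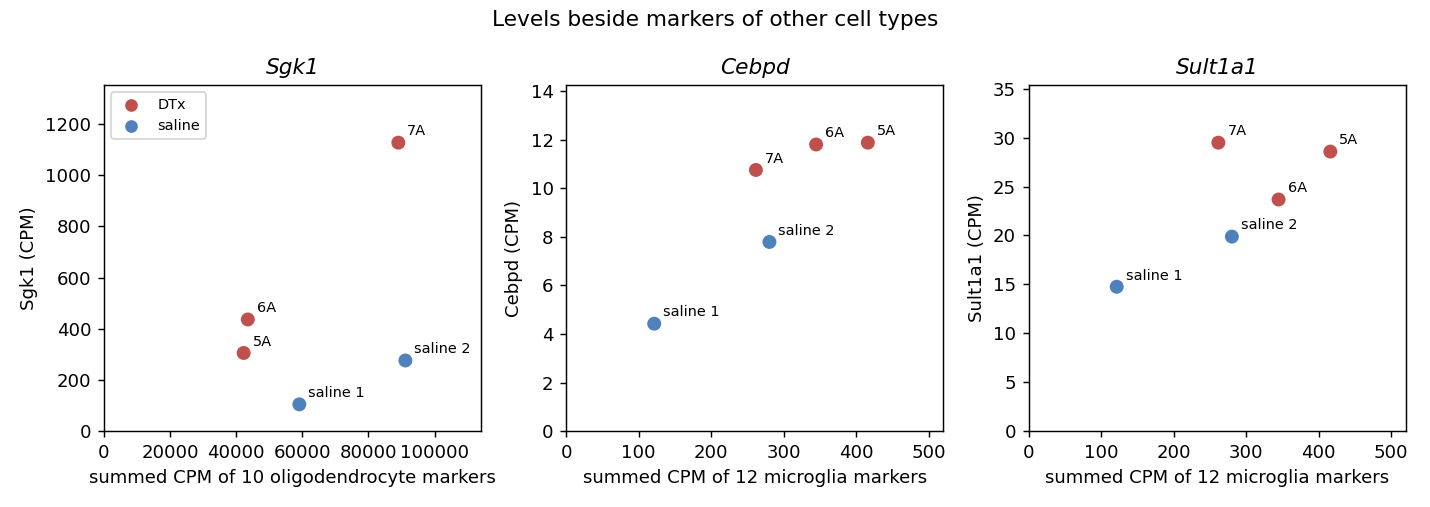
Level of Sgk1, Cebpd and Sult1a1 (vertical axes, CPM) against the summed CPM of oligodendrocyte or microglia markers (horizontal axes), 1 point per library, DTx-labelled in red and saline in blue. Sgk1 is highest in library 7A, at 1127 CPM, and Cebpd is lowest in saline replicate 1, where the microglia sum is lowest, at 121 CPM.

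Zbtb16 and Errfi1 shared a pattern that the group means hide. Zbtb16, which encodes the zinc finger repressor PLZF (gene ID 235320, chromosome 9, 48651797 to 48836225), stood at 29.8, 29.3 and 57.0 CPM in DTx-labelled 5A, 6A and 7A, against 35.7 and 36.9 CPM in saline. Library 7A lay above both saline libraries and 5A and 6A below them. The estimated log2 fold change was 0.09 ± 0.31 (SE, edgeR adjusted p = 0.959), with a 95% interval from -0.67 to 0.85, and it was -0.30 without library 7A.

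Errfi1, which encodes the EGF receptor inhibitor MIG6 (gene ID 74155, chromosome 4, 150853796 to 150868889), stood at 39.3, 30.6 and 77.4 CPM in DTx-labelled 5A, 6A and 7A, against 49.7 and 50.6 CPM in saline. Its saline libraries were within 1.02-fold of each other while its DTx-labelled libraries differed 2.53-fold. The log2 fold change was -0.03 ± 0.39 (SE, edgeR adjusted p = 0.988), with a 95% interval from -0.97 to 0.91. It was -0.52 without library 7A, and 0.10 and 0.22 without libraries 5A and 6A.

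**Figure D3:**
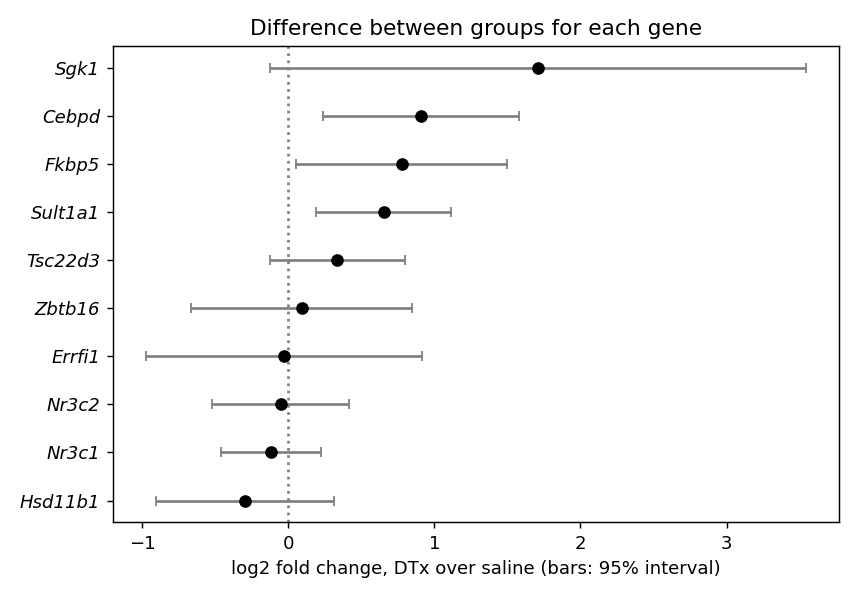
Log2 fold change of each gene, DTx over saline (points), with its 95% interval from the edgeR fit (bars). The intervals of Fkbp5, Sult1a1 and Cebpd lie above 0 before adjustment over all genes, Nr3c1 has the narrowest interval and Sgk1 the widest, from -0.12 to 3.54.

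Library 7A was the highest of the 5 for 6 of the 7 targets, Cebpd being the exception, and the same count over all genes was not made. Relative to the mean of libraries 5A and 6A, it was 3.04-fold for Sgk1, 2.21-fold for Errfi1, 1.93-fold for Zbtb16, 1.53-fold for Fkbp5, 1.29-fold for Tsc22d3, 1.13-fold for Sult1a1 and 0.908-fold for Cebpd. The receptors did not share this, at 0.984-fold for Nr3c1 and 1.10-fold for Nr3c2. Library 7A also differed from 5A and 6A well beyond these genes. Over genes with at least 20 counts in a pair of libraries, the chi-square statistic per degree of freedom was 60.74 and 58.36 between 7A and libraries 5A and 6A. It was 14.25 between 5A and 6A, and 17.68 between 7A and saline replicate 2. Averaged over the 7 targets, the centred log2 CPM was 0.03, 0.00 and 0.69 in libraries 5A, 6A and 7A, and -0.54 and -0.18 in saline replicates 1 and 2. Library 7A also held the most oligodendrocyte RNA of the DTx-labelled libraries, and the part of that RNA in these levels was not tested. Among 8954 other genes with a mean of at least 10 CPM, the profiles nearest to this average over the 5 libraries were those of Cirbp, Arid5b and Tubb3, with root mean square differences of 0.0672, 0.114 and 0.124 in log2 CPM. Cirbp, a cold-inducible RNA-binding protein gene, stood at 105, 116 and 169 CPM in DTx-labelled 5A, 6A and 7A, against 69.7 and 93.7 CPM in saline.

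The 10 genes covered a wide range of levels per kilobase of exon. Averaged over the 5 libraries, Tsc22d3 and Sgk1 led at 92.9 and 91.8 CPM per kilobase and kept that order in 4 of 5 libraries, library 7A having more Sgk1. Nr3c1 and Hsd11b1 followed at 25.4 and 23.6 CPM per kilobase, with overlapping ranges. Sult1a1 and Errfi1 had 15.4 and 13.8 CPM per kilobase and kept that order in only 2 of 5 libraries. Zbtb16, Nr3c2, Cebpd and Fkbp5 were lower, at 7.14, 3.63, 2.49 and 0.790 CPM per kilobase, and of these neighbours Zbtb16 and Nr3c2 alone had ranges that did not overlap. Cebpd was divided by 3746 exon bases of GENCODE M21, longer than its RefSeq span given above, so its place depends on the gene model.

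The glucocorticoid response element to which the receptors bind was sought in promoters of 7 of the 10 genes. It was written as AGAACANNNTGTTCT, a palindrome of 2 half-sites whose search covers both strands. RefSeq promoters on GRCm38.p6, from 250 bases before to 50 after a start site, were examined for 7 of the 10 genes, with 15 start sites in all. Start sites of Nr3c1, Zbtb16 and Cebpd were not among these 15, so nothing below describes their promoters. The exact element was present in 3 of 32851 promoters of the table (0.00913%), and 1 of these was a start site of Sgk1, with the element at chr10:21993701-21993715 on the plus strand, beginning 189 bases before that start. The half-site TGTTCT or its reverse complement, which the palindrome contains, was present in 19.0% of all promoters and in 5 of the 15 of these genes. Those 5 belonged to 3 of the 7 genes, and Sgk1 had the most start sites of the 7. With up to 2 of the 12 fixed bases changed, the palindrome was present in 1.84% of all promoters and in 3 of the 15. These were 2 start sites of Sgk1 and 1 of Sult1a1, so 2 of the 7 genes. The Sult1a1 match, at chr7:126676438-126676452 on the minus strand and beginning 34 bases before the start, differs from the palindrome by T10A and T13C, counted from 1 at its 5′ end with the base of the palindrome first. The promoter with the exact element and that of Sult1a1, the gene with the smallest p, are printed 5′ to 3′ along the gene, Sgk1 from chr10:21993640-21993939 (plus strand) and Sult1a1 from chr7:126676369-126676668 (minus strand), with the palindromes and half-sites in capitals.
Sgk1: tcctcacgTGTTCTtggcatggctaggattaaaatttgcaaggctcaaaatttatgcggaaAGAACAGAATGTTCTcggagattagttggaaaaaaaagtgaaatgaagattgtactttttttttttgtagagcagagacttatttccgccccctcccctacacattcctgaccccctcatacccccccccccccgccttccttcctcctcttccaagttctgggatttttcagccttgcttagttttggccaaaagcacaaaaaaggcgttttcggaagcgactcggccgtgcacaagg
Sult1a1: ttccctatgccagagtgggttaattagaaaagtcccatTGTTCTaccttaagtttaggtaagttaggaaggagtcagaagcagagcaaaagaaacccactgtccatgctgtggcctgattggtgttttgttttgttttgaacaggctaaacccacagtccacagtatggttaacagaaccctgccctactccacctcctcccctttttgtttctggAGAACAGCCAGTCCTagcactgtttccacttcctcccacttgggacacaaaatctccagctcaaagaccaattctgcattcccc
A match describes the letters alone, no binding was measured, and the start site in use in these cells was not determined. Fkbp5 and Tsc22d3, with 1 and 3 start sites in the table, had no palindrome in these windows.

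Other genes known to be induced by glucocorticoids were described for comparison. Of the 26 on the list 25 were tested, 17 with a log2 fold change above 0 and 8 below (median 0.30), and 0 passed over all genes. An unadjusted edgeR p under 0.05 was reached by 3 higher and 1 lower. Over all 15532 genes tested, 7807 were above 0 and 7725 below, and 666 higher and 310 lower had such a p. These counts are also the background for the lists that follow. Nfkbia, the NF-kB inhibitor, stood at 71.5, 60.3 and 97.3 CPM in DTx-labelled 5A, 6A and 7A, against 28.1 and 47.8 CPM in saline (log2 fold change 1.01 ± 0.30, SE, edgeR adjusted p = 0.789). Cdkn1a, which encodes the cell cycle inhibitor p21, stood at 24.7, 20.2 and 45.5 CPM against 16.5 and 13.5 CPM in saline (log2 fold change 1.004 ± 0.37, edgeR adjusted p = 0.789). Mt2, a metallothionein gene, stood at 176, 166 and 140 CPM against 66.7 and 124 CPM in saline, a log2 fold change of 0.75 ± 0.28. Rasd1, a dexamethasone-induced Ras-like gene, ran the other way, at 3.22, 2.05 and 2.504 CPM against 4.70 and 4.25 CPM in saline, a log2 fold change of -0.79 ± 0.32. The inhibitor Nfkbia, Cdkn1a and Mt2 were higher in every DTx-labelled library than in either saline library. Of the 25 tested, 7 were higher without overlap and 2 lower, where 12.1% and 8.98% of all genes tested were.

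Library 7A was the highest of the 5 libraries for 12 of these 25 genes, and the share over all genes was not counted. Among the DTx-labelled libraries it was the highest for 16 and the lowest for 6 (Mt1, Mt2, Bcl6, Nedd9, Gjb6 and Angptl4). The examples that follow were chosen after their values were seen. Plin4, a lipid droplet gene, stood at 4.70, 5.47 and 16.8 CPM in DTx-labelled 5A, 6A and 7A, against 6.18 and 5.46 CPM in saline. Arrdc2, an arrestin-domain gene, stood at 20.9, 24.0 and 66.5 CPM against 20.5 and 24.1 CPM. Per1, a circadian clock repressor, stood at 11.2, 15.9 and 26.2 CPM against 15.1 and 9.40 CPM. In these 3 genes library 7A was the highest of the 5 while at least 1 of 5A and 6A lay within the saline range. Dusp1, a phosphatase gene also induced by cell activation, had another order, at 110, 28.0 and 95.9 CPM against 161 and 55.3 CPM. Angptl4, a secreted lipoprotein lipase inhibitor, was lowest in 7A, at 17.6, 17.8 and 9.39 CPM against 12.1 and 9.94 CPM.

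Genes of the receptor complex showed small differences. Of 11 HSP90 chaperone and co-chaperone genes, 10 had a log2 fold change below 0 (median -0.15) and 0 passed, with 0 at an unadjusted p under 0.05. Fkbp4, the co-chaperone that competes with FKBP5 and favours nuclear transport of the receptor, stood at 138, 131 and 144 CPM in DTx-labelled 5A, 6A and 7A, against 157 and 173 CPM in saline (log2 fold change -0.26 ± 0.14, SE, edgeR adjusted p = 0.797). Its groups did not overlap, with the DTx-labelled libraries lower, opposite in sign to Fkbp5. The log2 fold changes of Ptges3, Stub1 and Hsp90ab1 were -0.35, 0.24 and -0.24. Of 15 receptor coregulators 10 were below 0 (median -0.17) and 0 passed. Ncoa3, a steroid receptor coactivator, had the smallest p among them, at 22.3, 19.6 and 29.4 CPM against 41.0 and 30.5 CPM in saline, a log2 fold change of -0.59 ± 0.22 (unadjusted p = 0.0342, edgeR adjusted p = 0.789). Those of Ep300, Med1 and Med14 were 0.28, -0.25 and -0.24.

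Steroid metabolism and transport genes were mostly scarce. Of 13 genes 7 were tested, 3 above and 4 below 0 (median -0.01), and 0 passed. Cyp11b1 and Cyp21a1, enzymes of adrenal steroid synthesis, had no count in any library. Tspo, an outer mitochondrial membrane protein gene also expressed by microglia, stood at 18.4, 16.1 and 10.02 CPM in DTx-labelled 5A, 6A and 7A, against 4.89 and 7.79 CPM in saline, a log2 fold change of 1.23 ± 0.34 (SE, edgeR adjusted p = 0.778). Srd5a1 and Srd5a3, of the 5-alpha-reductase family, had log2 fold changes of -0.35 and -0.23.

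Inflammatory genes that glucocorticoids are known to repress mostly had few counts in saline, Vcam1 being the exception with 2106 and 3474 counts. Of 14 on the list 10 were tested and 0 passed over all genes. At an unadjusted edgeR p under 0.05 there were 8, all higher in the DTx-labelled libraries. Over all 15532 genes tested, 666 were higher at that level. In 8 of the 10 tested, all but Ccl2 and Vcam1, the saline libraries did not both reach the level of the low-count filter. These genes entered the test with the help of the DTx-labelled libraries. The direction, the median and the count at an unadjusted p under 0.05 are therefore partly set by the filter and are no support for a difference. Ccl3, Ccl4, Ptgs2 and Ccl5 are among the genes that entered this way, and their levels below are description only. Ccl3 stood at 2.16, 0.559 and 1.59 CPM in DTx-labelled 5A, 6A and 7A, against 0.0923 and 0.0896 CPM in saline, and Ccl4 at 5.97, 1.68 and 2.56 CPM against 0.138 and 0.493 CPM. Ptgs2, the inducible cyclooxygenase, had 34, 7 and 19 counts in DTx-labelled 5A, 6A and 7A, against 1 and 1 in saline. Ccl5 had 27, 47 and 5 counts against 0 in both saline libraries. Microglia and border macrophages also make these chemokines, and the microglia marker sums given above were lowest in saline replicate 1.

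Immediate early genes, which respond to neuronal activity and to tissue dissociation, had 14 of 18 tested log2 fold changes below 0 (median -0.42), and 0 passed. Arc stood at 18.0, 25.3 and 34.3 CPM in DTx-labelled 5A, 6A and 7A, against 85.5 and 69.7 CPM in saline, a log2 fold change of -1.59 ± 0.27 (SE, edgeR adjusted p = 0.759). Those of Fosl2, Ier3 and Jun were 1.10, 1.21 and -0.79. The 21 genes summed to 578, 296 and 545 CPM in DTx-labelled 5A, 6A and 7A and 1025 and 426 CPM in saline replicates 1 and 2, so library 6A had the least and saline replicate 1 the most. The part of such activation in the levels of Sgk1 and Errfi1 was not tested. Of 14 genes of ERBB signalling and MAPK feedback, the pathway in which Errfi1 acts, 12 were tested, 10 were below 0 (median -0.19) and 0 passed. Spry2, a feedback inhibitor of receptor tyrosine kinases, stood at 118, 105 and 128 CPM against 199 and 143 CPM in saline, a log2 fold change of -0.55 ± 0.19 (SE, edgeR adjusted p = 0.789). Erbb3, Spred2 and Lrig1 had -0.77, -0.59 and -0.43.

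**Figure D4:**
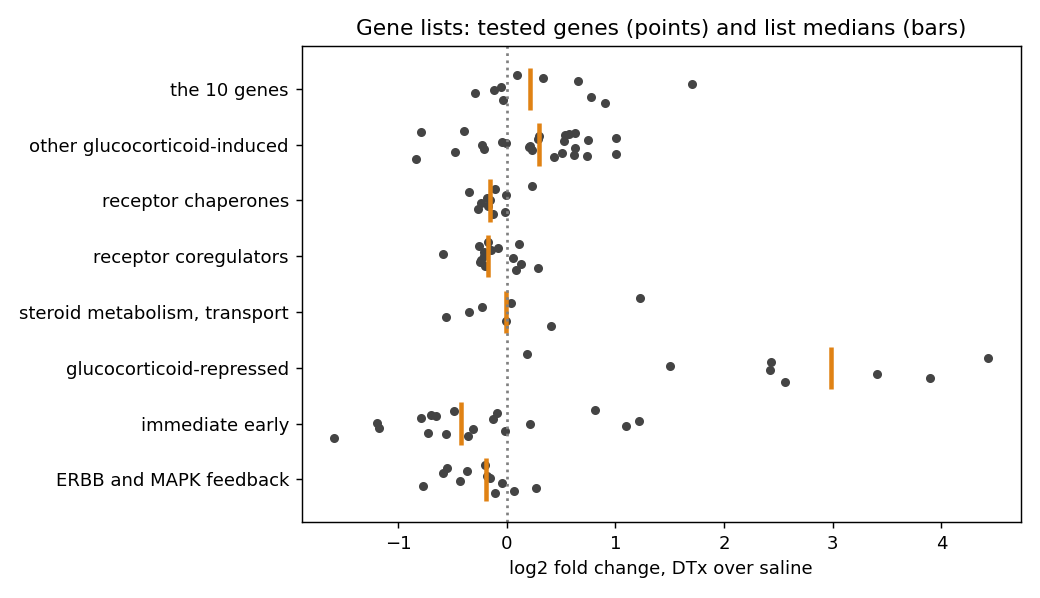
Log2 fold change, DTx over saline, of the tested genes of each list (points) and the list median (orange bars), with the median of all genes tested as a dotted line. Ccl5 and Cxcl10, which had no count in saline, are left out of the points and kept in the median. In the glucocorticoid-repressed list most points are genes with few saline counts that entered through the filter, and the medians of the other 7 rows lie between -0.42 and 0.30.

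The remaining marker lists describe what else the libraries held. Neuron markers, 11 of 11 tested, summed to 389, 487 and 470 CPM in DTx-labelled 5A, 6A and 7A and 360 and 320 CPM in saline. Endothelial markers, a cell type in which Sgk1 and Tsc22d3 are also expressed, summed to 18.3, 15.04 and 27.9 CPM against 20.6 and 21.5 CPM in saline, and pericyte and smooth muscle markers to 311, 253 and 315 CPM against 170 and 437 CPM. Oligodendrocyte precursor markers summed to 639, 583 and 970 CPM against 845 and 1151 CPM. Monocyte and macrophage markers summed to 129.9, 17.6 and 52.0 CPM against 17.9 and 24.8 CPM. In 5A the largest parts were F13a1 and Mrc1, at 51.6 and 37.9 CPM. Of the same list, Ly6c2, Plac8, S100a8 and S100a9 had at most 5 counts in any library. Ependymal markers summed to 171, 47.7 and 34.0 CPM against 267 and 30.2 CPM. Choroid plexus markers summed to 84.2, 98.5 and 24.6 CPM against 33.9 and 23.1 CPM. Of this sum Clic6 had 67.7, 92.6 and 12.6 CPM against 9.32 and 8.29 CPM. Otx2 ran the other way, at 9.93, 4.91 and 10.1 CPM against 19.7 and 13.7 CPM, and Ttr had at most 0.692 CPM. No marker of these lists was at 0 in all 5 libraries, and the part of these cells in the levels of the 10 genes was not tested beyond the covariate fits above.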

How the data were processed

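The deposited values are raw read counts per gene symbol, with 1 column for each library. Per the submitters' processing notes, the programs were edgeR 3.42.4, featureCounts 2.0.1, STAR 2.7.5c, MultiQC 1.11, fastp 0.23.2 and FastQC 0.11.9, with GRCm38 (mm10) as build. Nothing in the sources used here gives their settings, the annotation or whether counting was stranded. The 2 saline libraries are the columns named Ctrl with the numbers of saline replicates 1 and 2. The numbers of the DTx columns match no label, so these columns have a group and no replicate number. The table has 1 more column of per-sample values, left out of every step. Chi-square statistics between pairs of libraries were at least 14.25 per degree of freedom, so no pair was counted as 1 sample. Nothing in the labels says that libraries are separate animals, and the p-values cover the spread between libraries, which may be technical.

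The whole table was fitted with edgeR 4.0.16 (R 4.3.3), with TMM scaling, filterByExpr (minimum count 10) and the robust quasi-likelihood test, and p-values were adjusted by Benjamini-Hochberg with a threshold of 0.05. All 10 genes passed the filter. SE is the log2 fold change over the root of F, and 95% intervals use the t distribution with the degrees of freedom of the fit. Levels are TMM-scaled CPM, and log2 CPM used a prior count of 2. Levels per kilobase used the union of GENCODE M21 exons, which may differ from the authors' gene models. Positions come from RefSeq on GRCm38.p6. The edgeR test was also run on counts simulated from the means and dispersions of these data, with set fold changes. Those counts hold no group difference in sex or cell types, so that run cannot show how the test behaves on these libraries. The 10 genes and the lists were chosen with earlier results of these data known. In each pathway list the 4 tested genes with the smallest p were named, and other genes were named after their values were seen. Alternatives were 3 other scalings, 2 other filters, DESeq2 1.42.0, limma-voom (limma 3.58.1), the edgeR likelihood ratio test, covariates of microglia or oligodendrocyte markers, and each library left out.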

Additional observations from a re-analysis of the deposited data

How the results depend on the processing

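None of the 10 genes passed the threshold under any of the 15 alternatives run, and the lowest adjusted p was 0.246, for Sgk1 with the oligodendrocyte covariate. Of 150 log2 fold changes recomputed for the 10 genes, 141 kept their sign and 9 turned. Those of Fkbp5, Sgk1, Tsc22d3, Sult1a1 and Cebpd (above 0) and Nr3c1 (below 0) kept it in all 15 alternatives. Errfi1 turned to 0.23 with the microglia covariate and 0.26 with the oligodendrocyte covariate, and Nr3c2 to 0.058 with the oligodendrocyte covariate. With each library left out, Errfi1 ranged from -0.52 to 0.22, Hsd11b1 from -0.60 to 0.090, Nr3c2 from -0.21 to 0.12 and Zbtb16 from -0.30 to 0.26. The cause was not tested.

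Among all genes tested 4 were called higher and 1 lower, all of them sex-chromosome genes. These counts were 7 and 2 with no low-count filter, 95 and 16 with DESeq2, 81 and 12 with the edgeR likelihood ratio test, and 2 higher with the microglia covariate. With each library left out, 4 to 12 genes were called higher (12 without DTx library 7A) and 1 lower. No paired analysis was possible because the DTx columns carry no replicate number of the labels.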
